A study of Mus musculus with 71 samples.

Results

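Proliferating γδ intraepithelial lymphocytes (IELs) of the mouse small intestine were described in 6 single-cell libraries. They were chosen by their own reads: a cell had to hold at least 500 detected genes, at least 5 UMIs (unique molecular identifiers, counts of captured RNA molecules) of Cd3d, Cd3e, and Cd3g together, and at least 5 UMIs summed over Birc5, Ccnb2, Ccna2, Nusap1, and Rrm2. Of 23994 deposited barcodes, 23644 passed the first 2 limits and 157 of these passed the last. The remaining 23487 cells, called the other cells here, were the comparison. Because the 5 genes chose the cells, their levels and those of the cell cycle genes that move with them are set against the other cells as a description, with no test. Between genotypes and segments, all genes with enough counts other than the choosing genes were tested.

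The study asked what loss of Btnl2, a butyrophilin-like protein of the intestinal epithelium, does to γδ IELs. Btnl2-KO mice (a LacZ cassette joined at the start codon of Btnl2 and followed by a selection cassette, a null allele in every cell of the animal) were compared with cohoused WT littermates, all on the C57BL/6 strain. The single cells came from 1 library for each of duodenum, jejunum, and ileum and each genotype, labelled 8-10 weeks of age, whereas the study's text gives a slightly older age and a pool of several mice per genotype, so the 3 segments of a genotype share animals. Another 22 libraries of bulk RNA, labelled 10 weeks, came from sorted γδ IELs of the same segments (3 Btnl2-KO and 4 WT of duodenum, 4 and 4 of jejunum, 3 and 4 of ileum, each a pool of mice, as the study's methods say). γδ IELs had been sorted as CD45+ TCRβ- TCRγδ+ cells. With 1 library per segment and genotype, every p-value from the single cells measures the spread between 6 libraries. These come from 1 pool of mice per genotype, so no such p-value measures the spread between mice. The limit holds for genotype, for segment, and for proliferating against other cells.

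γδ IELs are T cells that sit between the epithelial cells of the gut, carry the CD8αα homodimer and large stores of granzymes, and renew largely in place. A dividing T cell first copies its DNA in S phase, with the MCM helicase, the PCNA clamp, and the enzymes that make deoxynucleotides, and then builds a spindle and separates its chromosomes in G2 and mitosis. Ccnb2 and Ccna2 encode cyclins B2 and A2, which drive the mitotic kinase Cdk1. Birc5 encodes survivin, a member of the complex that corrects spindle attachment, Nusap1 a protein that bundles spindle microtubules, and Rrm2 the small subunit of ribonucleotide reductase, which limits the supply of deoxynucleotides in S phase.

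Most cells held none of the 5 genes, and the number of cells fell gradually across the limit. Of the 23644 cells, 22765 held no UMI of any of them, 644 held 1, and 78 held 2 to 4. The 157 proliferating cells held 5 to 90 UMIs, with a median of 19. Just outside the limit were 9 cells with 4 UMIs and 25 with 3, and just inside were 10 cells with 5 and 5 with 6. At least 10 UMIs were found in 124 of the 157 cells and at least 20 in 76. All 5 genes were detected together in 55 proliferating cells, and at least 3 of them in 120.

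**Figure D1:**
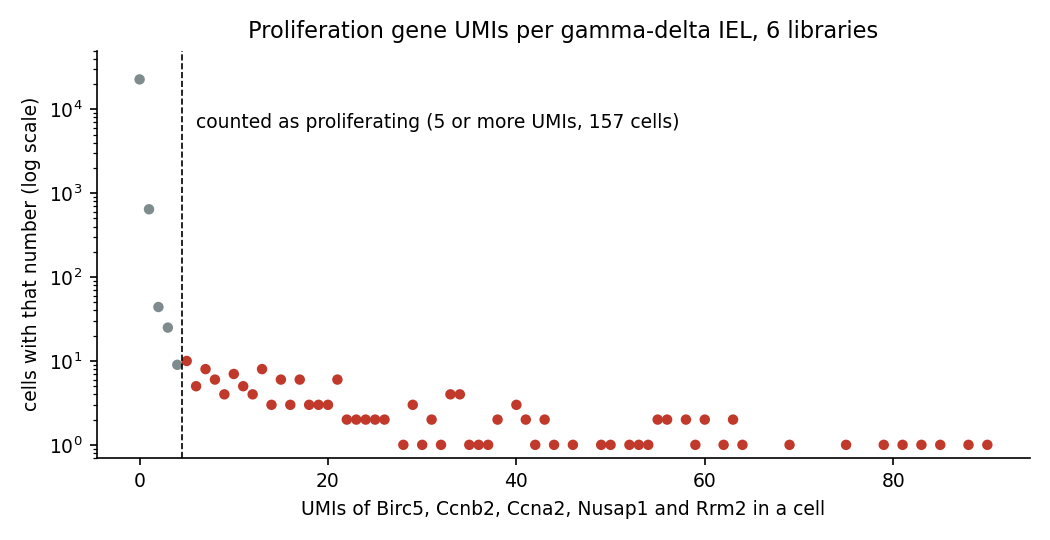
Number of cells (vertical axis, log scale) by the UMIs of the 5 genes in a cell (horizontal axis) over the 6 single-cell libraries, with the limit of 5 UMIs as a dashed line. Cells become fewer from 22765 with 0 UMIs to 9 with 4, and the 157 cells to the right of the line (red) spread up to 90 UMIs.

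The levels of the 5 genes are given in CPM, UMIs of a gene per 1000000 UMIs of the summed cells. For single genes that total was multiplied by edgeR's TMM factor (0.9481 to 1.047 over the 12 sums), and sums over a list and the S phase and mitosis classes of cells used the total alone. The values follow for the proliferating cells of duodenum Btnl2-KO, duodenum WT, jejunum Btnl2-KO, jejunum WT, ileum Btnl2-KO, and ileum WT, an order kept throughout. Birc5 was at 566.8, 517.3, 489.9, 416.8, 486.1, and 531.7, and Ccnb2 at 398.1, 276.7, 328.1, 318.3, 436.2, and 340.7. No library stood apart from the rest in these 2 genes. Rrm2 was the most variable of the abundant ones, at 569.6, 697.7, 268.1, 508.6, 371.4, and 537.6, lowest in the jejunum Btnl2-KO library. Nusap1 had its lowest value, 76.26, in the same library, against 112.2 to 237.6 in the remaining 5. In the other cells Birc5 averaged 0.840 ± 0.111 (SD, n = 6 libraries), Ccnb2 0.729 ± 0.237, and Rrm2 4.27 ± 0.629. Rrm2 therefore gave most of what the other cells held, 546 of their UMIs in 507 cells, against 40 UMIs of Ccna2 and 56 of Nusap1.

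The T cell genes Cd3d, Cd3e, and Cd3g were present by the choice of cells, from 14 UMIs upward with a median of 77, against 44 in the other cells. As a share of RNA they were lower, at 4761 to 5849 CPM over the 6 libraries against 8396 to 8809. The whole list of 6 T cell genes was at 6753 to 8022 against 11525 to 11928 CPM. Of the marker genes of γδ T cells, only Sox13 and Cd163l1 have rows in the tables, and both were at 0 UMIs in the proliferating cells, so the γδ label rests on the sort. The αβ T cell list had rows for 2 genes, with sums of 19 to 33.1 CPM against 16.8 to 33.4 in the other cells. Of these, Cd8b1, which the study also names as a marker of progenitors among γδ IELs, was detected in 10 of the 157 cells. After each cell was thinned to 3300 UMIs, Cd8b1 was detected in 3.82% of the proliferating cells (exact 95% interval 1.42 to 8.13) and 3.24% of the other cells. The list of 6 B and plasma cell genes held 176 UMIs in the proliferating cells, all of Cd79b (list sums of 52.17 to 101.2 CPM against 90.12 to 95.59 in the other cells), with Cd79a, Ms4a1, Jchain, and Mzb1 at 0. The 5 NK and innate lymphoid genes held 28 UMIs (8.14 to 18.1 against 12.2 to 19.8 CPM), with Ncr1 and Il22 at 0. The 6 myeloid genes held 24 UMIs, of Cd68 and Itgam (4.73 to 13.6 against 7.39 to 9.83 CPM), and the 4 hemoglobin genes with rows in the tables held none. The 12 epithelial genes together were at 47.3 to 723 CPM in the proliferating cells and at 164 to 234 in the other cells. The 2 high values, in the duodenum WT and jejunum Btnl2-KO libraries, came from 1 cell each, with 211 and 264 epithelial UMIs. Another cell, also of jejunum Btnl2-KO, held 3139 UMIs of mast cell proteases. Without these 3 cells the epithelial genes were at 47.3 to 94.9 CPM in all 6 libraries, and results that rest on them are given both ways.

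The 6 libraries held 19262295 to 28156801 UMIs in 3641 to 4696 barcodes, and pairs of libraries shared 19 to 31 barcode sequences. LacZ UMIs were found in the 3 Btnl2-KO libraries (11 to 21) and in no WT library, and Btnl2 UMIs numbered 6 to 27 in the WT libraries and 0 or 1 in the Btnl2-KO libraries. The proliferating cells held more UMIs, with a median of 12249 to 16372 per library against 4855 to 5454 in the other cells. The ratio was 2.4 to 3.26. The choice asked for a minimum number of UMIs of the choosing genes whatever the total of a cell, so it favoured cells with more UMIs. How much of the difference came from the choice was not tested, and cell size was not measured. The median share of mitochondrial UMIs was about the same, at 2.91 to 3.32% against 3.33 to 3.56%. Scrublet, a doublet caller, marked 6 of the 23644 cells (0.0254%), too few for it to have worked, and none of the 157; doublets were therefore not removed.

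The proliferating share was below 1% in each library. It was 0.687% in duodenum Btnl2-KO (27 of 3931 cells, exact Clopper-Pearson 95% interval 0.453 to 0.998) and 0.506% in duodenum WT (20 of 3953, 0.309 to 0.78). In the jejunum it was 0.762% in Btnl2-KO (29 of 3807, 0.511 to 1.09) and 0.529% in WT (19 of 3592, 0.319 to 0.825). In the ileum the order was turned, with 0.623% in Btnl2-KO (29 of 4658, 0.417 to 0.893) and 0.891% in WT (33 of 3703, 0.614 to 1.25). All these intervals overlap, and they cover counting error only. The ratio of the Btnl2-KO to the WT share was 1.36 in the duodenum (95% counting interval 0.734 to 2.55), 1.44 in the jejunum (0.78 to 2.72), and 0.699 in the ileum (0.409 to 1.19), each interval including 1. Among the WT libraries the ileum exceeded the duodenum 1.76-fold (0.981 to 3.24), and among the Btnl2-KO libraries the ratio was 0.906 (0.518 to 1.59). For genotype, the interval included 1 under each of the 8 other ways of choosing cells. The WT ileum to duodenum ratio had an interval above 1 under 3 of them: 1.957 (1.07 to 3.692) with Mki67, Top2a, Cdk1, Ube2c, and Tpx2 as choosing genes, 1.855 (1.024 to 3.452) without the 3 cells of other cell type markers, and 1.844 (1.018 to 3.433) with at most 10% mitochondrial UMIs. A genotype difference was thus not detectable at this number of cells, and the segment ratio in WT lay at the edge of its counting interval. The duodenal ratio was 1.01 when 10 UMIs were required.

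**Figure D2:**
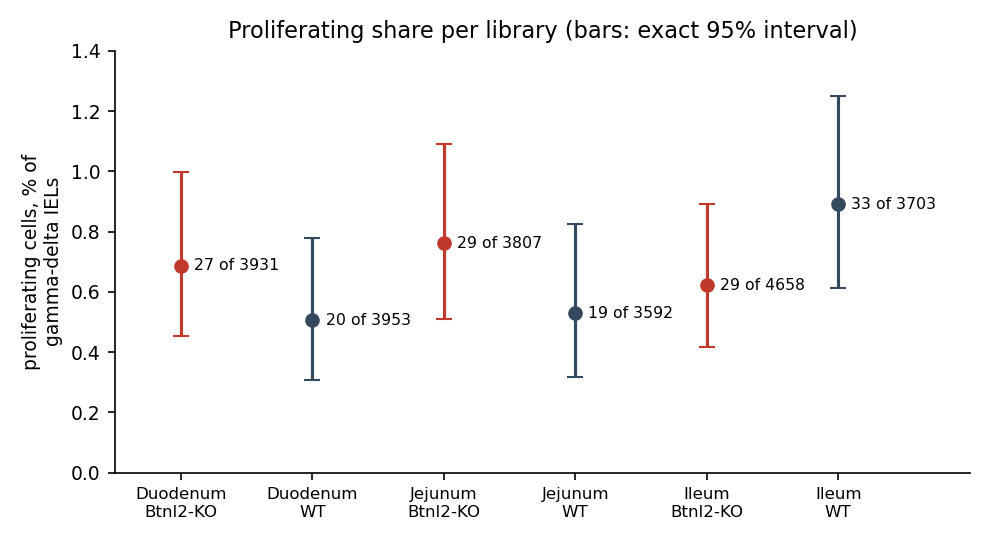
Proliferating cells as a percentage of γδ IELs in each of the 6 libraries, with the number of cells beside each point and exact 95% intervals as bars. The shares run from 0.506 to 0.891% and every pair of bars overlaps.

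The proliferating cells held transcripts of both S phase and mitosis, in proportions that differed from cell to cell. The S share was taken over 40 genes of S phase and replication and 53 of G2 and mitosis. The S genes made up a median of 26.8% of the UMIs of both lists, with a range over the 157 cells of 2.87 to 78.6%. In the other cells the median S share was 57.1 to 58.3% per library. The share depends on which genes each list holds, so equal UMIs mark no boundary between phases. In 77 cells the S share was under 25%, in 40 between 25 and 50%, in 39 between 50 and 75%, and in 1 above that. The 5 choosing genes moved with that share. Ccnb2 averaged 7.95 UMIs per cell in the 77 cells with the lowest S share and 0.821 in the 39 cells at 50 to 75%, whereas Rrm2 averaged 2.09 and 10.2. Birc5 went from 9.01 to 2.69. Rrm2 is the S phase gene among the 5, so the choice of cells leaned on genes of G2 and mitosis.

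**Figure D3:**
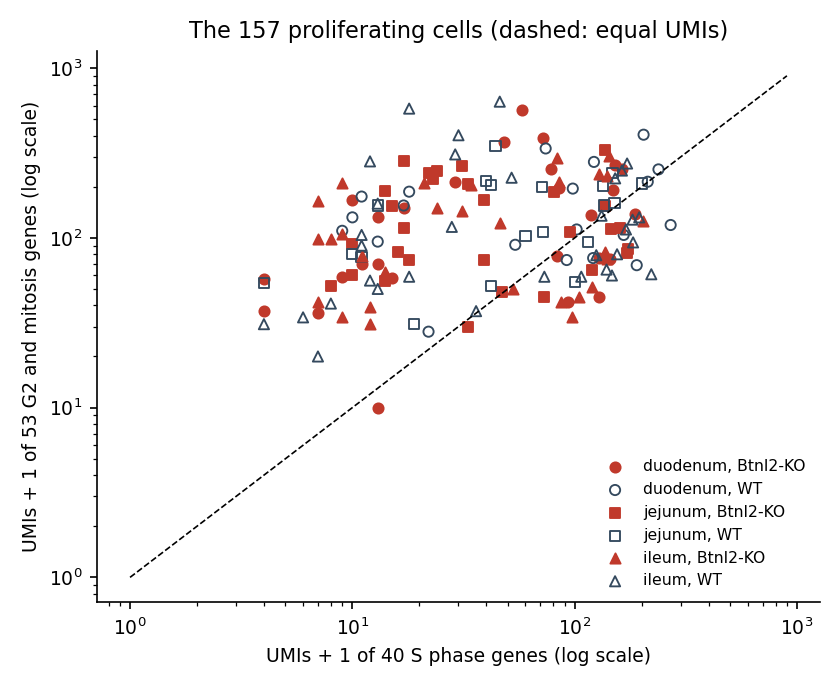
UMIs of the S phase genes (horizontal axis) against those of the G2 and mitosis genes (vertical axis) in each of the 157 proliferating cells, both plus 1 and on log scales; colour and symbol give genotype and segment. Of the 157 cells, 40 lie below the dashed line of equal UMIs, and cells of all 6 libraries lie on both sides.

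When the 157 cells were divided at equal UMIs, the 40 cells with more S than G2 and mitosis UMIs and the other 117 differed in the genes that the division used. The MCM helicase gene Mcm6 was at 455.2 CPM in the first group and 145.7 in the second, and Mcm2 at 251.2 and 78.36. Cenpa, the centromeric histone, was at 39.9 and 604.2, and Ube2c, the enzyme that loads ubiquitin for the anaphase-promoting complex, at 28.08 and 450.4. Top2a and Cdk1 differed little, at 319.2 and 381.3 for Top2a and 131.5 and 129.4 for Cdk1. Proliferating cells with more S UMIs numbered 2 to 11 per library. Btnl2-KO cells made up 46 of the 77 cells at the lowest S share, 17 of the 40 in the next class, and 22 of the 39 at 50 to 75%. Of all 157 cells, 27, 29, and 29 came from the Btnl2-KO libraries of duodenum, jejunum, and ileum, and 20, 19, and 33 from the WT libraries. Cells are not replicates of a genotype, and these counts were not tested.

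The cell cycle genes stood far above their level in the other cells. Of 40 S phase genes, 38 had enough counts (at least 10 in at least 6 of the 12 sums of proliferating and other cells per library), and 37 of these were higher in the proliferating cells of all 6 libraries, with a median ratio of 6.07. Of 53 G2 and mitosis genes 45 had enough counts and 44 of these were higher, with a median ratio of 36.9. A gene could reach the limit on counts through the proliferating cells alone, as Hmmr did with 10 UMIs in the other cells, so these counts and ratios describe the choice of cells and support nothing further. Over all 11005 genes with enough counts, 15.1% were higher in every library, with a median ratio of 0.918. Among the S phase genes, Mcm5 averaged 156.1 ± 33.5 CPM (SD, n = 6 libraries) against 20.68 ± 1.08, Pcna 223 ± 31.6 against 61.91 ± 2.92, and Tyms, thymidylate synthase, 160.7 ± 46.8 against 14.09 ± 1.17. Among the mitotic genes, Mki67, the gene of the Ki-67 antigen, was at 431.3, 318.8, 203.4, 206.7, 234.3, and 323 CPM, against 5.43 to 6.16 in the other cells. The groups did not overlap. Cdca3, a trigger of mitotic entry, averaged 211.7 ± 34.5 against 0.617 ± 0.174. Pttg1, securin, was the exception, at 85.8 ± 14.9 against 115.3 ± 4.23 and lower in all 6 libraries.

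Chromatin and spindle building blocks were higher as well. All 15 genes of that list were higher in every library, with a median ratio of 3.86. Stmn1, stathmin, which destabilizes microtubules, was at 1305, 1167, 776.5, 951.7, 1024, and 1117 CPM against 5.28 to 8.18 in the other cells. Hmgb2 was the most abundant of the mitotic list, at 2955 ± 167 against 226.7 ± 9.41, and the replacement histone H2afz reached 2361 ± 119 against 497.7 ± 19.7. Tuba1b and Tubb5, the tubulin subunits of the spindle, were at 1498 ± 389 and 1380 ± 340 against 123.8 ± 9.26 and 247 ± 18.1. Of 42 genes of core histones and linker histone H1, 30 were higher in all 6 libraries, with a median ratio of 5.73. Histone genes of a cluster are nearly identical, so single copies are uncertain where the counting could split reads between them. The 10 genes with the largest fold outside the rule were Fam64a, Esco2, Hmmr, Mxd3, Neil3, Cdca3, Pbk, 2810417H13Rik, Shcbp1, and Cdkn3. All but 2810417H13Rik had only 4 to 81 UMIs in the other cells of the 6 libraries together and passed the limit on counts only with the proliferating cells. Of the 10, Esco2 encodes a cohesin acetyltransferase of S phase, Hmmr a spindle protein, and Neil3 a DNA glycosylase. The most abundant, 2810417H13Rik, had 793 ± 164 CPM against 2.53 ± 1.1.

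The regulators of entry into the cycle were more mixed. Cdk4 was at 258.1 ± 22.5 CPM against 115 ± 6.92, the cyclin Ccne1 at 55.92 ± 20.2 against 6.244 ± 0.602, and the transcription factors E2f1 and Mybl2 at 34.6 ± 6.33 and 54.5 ± 9.95 against 5.351 ± 0.655 and 0.7183 ± 0.194. The D-type cyclins did not follow: Ccnd2 was at 135.4 ± 17.2 against 317.2 ± 72.8, lower in every library, and Ccnd3 at 213.1 ± 27.9 against 187.5 ± 10. Genes of arrest and quiescence moved both ways. Btg1, an antiproliferative gene of resting lymphocytes, was at 351.1, 261.6, 268.1, 311.8, 286.7, and 291.5 in the proliferating cells against 915 to 1111 in the other cells. Cdkn1b, the gene of the inhibitor p27, was at 42.97 ± 9.52 against 78.63 ± 1.6, and Foxo1 at 52.18 ± 15.5 against 84.6 ± 1.66. Cdkn2c and Cdkn2a, which encode INK4 inhibitors, were instead higher, at 68.17 ± 18 and 16.65 ± 3.92 against 9.063 ± 0.768 and 1.517 ± 0.649.

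Many promoters of these genes carry the motifs by which cell cycle genes are known to be controlled: the CCAAT box bound by NF-Y, the CHR element TTTGAA bound by complexes that hold late genes silent in resting cells, and E2F sites of S phase genes. The 250 bases upstream of each start site were read from RefSeq for the GRCm38.p6 build, the build of the files, and searched on both strands. TTTGAA occurred in 16% of all 32851 start sites, in 38% of the 50 start sites of the G2 and mitosis list, and in 16.7% of the 36 of the S phase list. CCAAT occurred in 33.8% of all, 82% of the G2 and mitosis list, and 61.1% of the S phase list. An E2F motif (TTTCGCGC, TTTGGCGC, TTTCCCGC, or TTTGCCGC, which can overlap on opposite strands) occurred in 1.86%, 4%, and 25%. For contrast, CCAAT occurred in 15% of the 20 start sites of the cytolytic list. These are matches of letters and no measure of binding. Of the 5 choosing genes 4 had a promoter in the reference table, and Ccna2 had none. Of the 4, TTTGAA was in 1 (Ccnb2) and CCAAT in 2 (Ccnb2 and Rrm2), no E2F motif was in any, and Birc5 and Nusap1 had none of the motifs. Chosen for their motifs, and so not typical of the lists, are the upstream 250 bases, 5′ to 3′ on the strand of the gene, of the choosing gene Ccnb2, of Cdk1 with all 3 kinds of motif, of Top2a with several CCAAT boxes, and of Mcm5, an S phase gene with E2F motifs. Capitals mark the motifs on either strand.
Ccnb2 (chr9:70421555-70421804, minus strand): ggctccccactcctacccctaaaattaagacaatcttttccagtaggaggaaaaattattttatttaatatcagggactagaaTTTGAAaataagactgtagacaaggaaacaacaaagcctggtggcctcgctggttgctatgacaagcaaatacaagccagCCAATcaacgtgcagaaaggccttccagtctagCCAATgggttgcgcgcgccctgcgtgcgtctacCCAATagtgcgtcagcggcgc
Cdk1 (chr10:69352913-69353162, minus strand): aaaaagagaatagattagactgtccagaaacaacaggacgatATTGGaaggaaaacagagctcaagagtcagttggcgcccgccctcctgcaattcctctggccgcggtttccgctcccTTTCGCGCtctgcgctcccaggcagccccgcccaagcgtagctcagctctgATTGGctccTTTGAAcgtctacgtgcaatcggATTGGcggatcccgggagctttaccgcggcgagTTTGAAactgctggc
Top2a (chr11:99024190-99024439, minus strand): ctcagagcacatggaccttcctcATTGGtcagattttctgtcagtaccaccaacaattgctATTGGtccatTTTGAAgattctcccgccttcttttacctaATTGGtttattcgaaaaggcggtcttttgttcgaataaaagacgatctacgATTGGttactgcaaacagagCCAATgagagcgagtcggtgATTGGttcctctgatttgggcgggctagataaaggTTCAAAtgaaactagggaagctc
Mcm5 (chr8:75109259-75109508, plus strand): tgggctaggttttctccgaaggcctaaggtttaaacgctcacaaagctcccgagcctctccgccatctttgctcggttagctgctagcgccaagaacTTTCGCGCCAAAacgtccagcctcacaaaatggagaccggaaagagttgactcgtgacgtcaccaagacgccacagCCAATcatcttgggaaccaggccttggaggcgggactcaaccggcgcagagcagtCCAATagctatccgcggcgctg

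Ccnb2, at 276.7 to 436.2 CPM in the proliferating cells, has 3 CCAAT boxes and 1 TTTGAA in this window, Cdk1 (131.4 ± 43.7 CPM against 2.585 ± 0.41) has 3 CCAAT boxes, 2 TTTGAA, and 1 E2F motif, and Top2a (379.5 ± 133 against 15.32 ± 1.79) has 6 CCAAT boxes and 2 TTTGAA. Mcm5 has 2 CCAAT boxes and 2 overlapping E2F motifs, with no TTTGAA.

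Genes of metabolism, effector functions, and surface receptors were compared as well. In edgeR's quasi-likelihood test on the 12 sums, with library as a block, 1323 of the 11005 genes tested (12%) were called higher and 1637 (14.9%) lower at an FDR (Benjamini-Hochberg) below 0.05 and a fold above 1.5. The genes called higher include 44 of the G2 and mitosis list, 36 of the S phase list, and 35 histone genes. These move with the choosing genes, so their calls follow from the choice of cells and are no result. They are part of the 12% that later list counts are set beside. The 3 cells with markers of another cell type changed little in these counts, which were 1292 and 1709 without them. Other cells of matching UMI total were those within the interquartile range of the proliferating cells of their library, 40 to 190 per library. Their median totals of 11323 to 13918 UMIs were still below the 12249 to 16372 of the proliferating cells in each library, so depth was matched in part only. Against them 620 and 578 of 6306 genes were called higher and lower, the background for later list counts with these cells. Levels are relative to each sum's UMIs, so a gene with the same number of UMIs per cell reads lower in the proliferating cells, and UMIs per cell are given beside the main examples. The median log2 fold change over all genes tested was -0.12.

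Biosynthesis and energy genes were higher. Of 17 genes of nucleotide and one-carbon synthesis, many of which follow the cell cycle and are given with no test, 15 were higher in all 6 libraries, with a median ratio of 2.17. Impdh2, an enzyme of guanine nucleotide synthesis, had 165.7 ± 18.6 CPM against 56.86 ± 4.69. Of 16 glycolysis genes 9 were called higher and 1 lower (median log2 fold change 0.84), against 12% and 14.9% of all genes tested. Gapdh was at 2787 ± 176 against 1090 ± 54, Tpi1 at 292.7 ± 34.2 against 96.96 ± 6.16, and Ldha, lactate dehydrogenase, at 999.8 ± 156 against 500.8 ± 39. The glucose transporter gene Slc2a3 was the one called lower, at 17.84 ± 7.44 against 33.04 ± 2.56. Of 20 genes of oxidative phosphorylation 12 were higher and none lower (median 0.68), among them Cycs, cytochrome c, at 454.6 ± 28.4 against 206.6 ± 12.2. Against other cells of matching UMI total 3 of 13 glycolysis genes and 4 of 20 of oxidative phosphorylation were called, all higher, with medians of 0.45 and 0.45.

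Effector genes that changed were a smaller share of the RNA of the proliferating cells. None of 20 cytolytic and effector genes was called higher and 11 were called lower (14.9% of all genes tested were), with a median log2 fold change of -0.62. Ccl5, a chemokine of cytotoxic lymphocytes, was at 18520, 18760, 14288, 14885, 16063, and 17348 CPM in the proliferating cells. It was at 33353 to 42557 in the other cells, so the groups did not overlap (log2 fold change -1.22 ± 0.06 SE, edgeR FDR 1.55e-25), while UMIs per cell were 248 and 214. Gzma, granzyme A, was at 28545 ± 2283 against 32812 ± 1838 and was not called because its fold of 1.15 was under the limit (log2 fold change -0.2 ± 0.06, edgeR FDR 0.00357), with 423 and 181 UMIs per cell. Gzmb, granzyme B, was at 4904 ± 1685 against 6455 ± 702, a fold of 1.39 that was under the limit too (edgeR FDR 1.30e-04). Both were lower in all 6 libraries. Prf1, the pore-forming perforin, fell to 23.25 ± 8.56 from 60.76 ± 5.84, and Fasl, the Fas ligand, to 45.95 ± 19.1 from 117.5 ± 15.7. Nkg7, Ctsw, and Cst7, which encode granule proteins, fell by 0.63, 0.91, and 0.84 on the log2 scale. Against cells of matching UMI total 8 of 18 were lower, with DESeq2 7 of 20, and without the 3 cells 9 of 20.

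Genes of residence in the epithelium followed the same direction. Of 21 genes 12 were called lower and none higher, with a median of -0.64, beside 14.9% lower and 12% higher among all genes tested. Against cells of matching UMI total 9 of 21 were lower. Itgae, the integrin that binds epithelial E-cadherin, was at 598.4 ± 55 CPM against 929.5 ± 19.2, and Itga1, a collagen-binding integrin subunit, at 85.68 ± 20.1 against 193.3 ± 4.27. Tyrobp, a signalling adaptor of NK receptors, was at 398.6 ± 144 against 963.5 ± 258. Itgb7, Ccr9, Cd160, and Itga4 were not called, with log2 fold changes of -0.15, -0.17, -0.1, and 0.13. Itgae was detected in 156 of the 157 cells. In cells thinned to 3300 UMIs it was detected in 80.9% (exact 95% interval 73.9 to 86.7) of the proliferating and 92.9% of the other cells. Ccr9, the homing receptor of the small intestine, was detected in 44.6% and 43.2% of thinned cells. Tyrobp, lower in CPM, was detected in 44.6% of thinned proliferating and 45.5% of thinned other cells. For Fcer1g these shares were 79.6% and 78.8%, for Cd8a 86% and 87.5%, and for Cd160 73.9% and 69.1%.

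**Figure D4:**
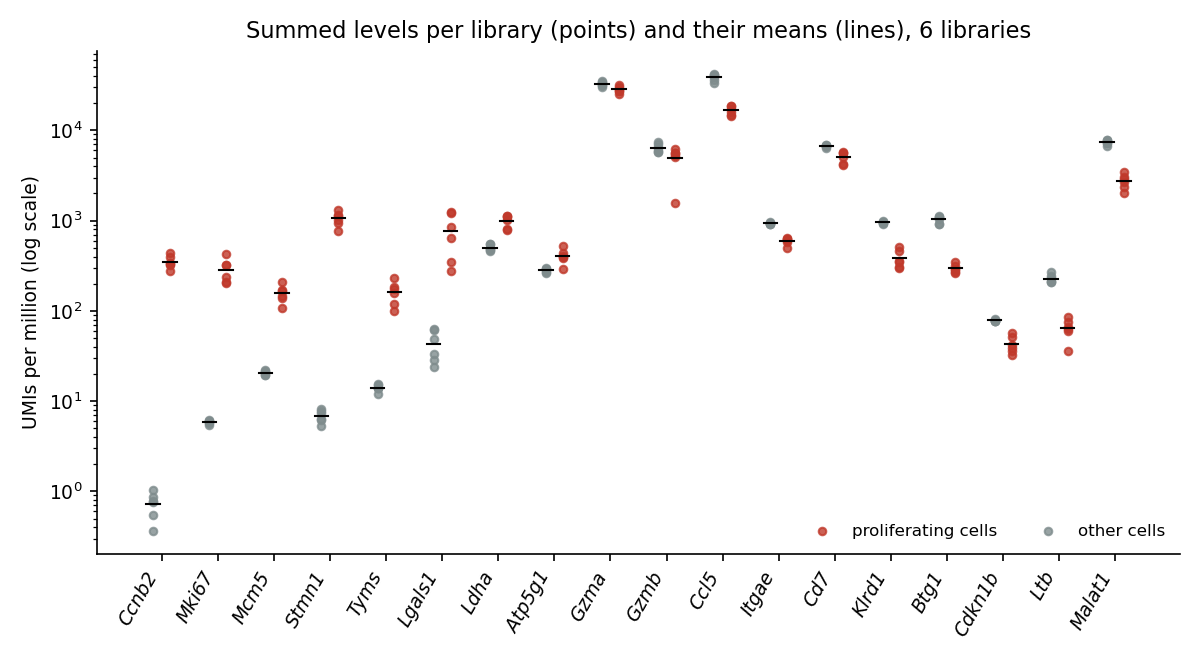
CPM (log scale) of 18 genes in the summed proliferating cells (red) and the summed other cells (grey) of each of the 6 libraries, with the mean of each class as a line. The classes are apart for Mki67 (203.4 to 431.3 against 5.43 to 6.16) and for Ccl5 (14288 to 18760 against 33353 to 42557), and overlap for Gzma and Gzmb.

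Most receptor and survival genes that were called were lower, with Havcr2 and Myc as exceptions. Klrd1, the CD94 chain of the NK receptor complex, was at 298.6, 306.8, 462.2, 354.4, 516, and 350.6 CPM against 922.6 to 1002 in the other cells (log2 fold change -1.32 ± 0.08 SE, edgeR FDR 2.84e-23). It was detected in 56.1% of thinned proliferating cells (47.9 to 64) and 77.3% of thinned other cells. Among all genes tested 14.9% were lower and 12% higher, the background for the list counts that follow. Of 11 NK receptor genes 4 were called lower (2 with DESeq2), and of 8 inhibitory receptor genes 5 were lower and Havcr2 (TIM-3) was higher, at 11.14 ± 5.54 against 3.748 ± 1.07. Tigit and Lag3 fell by 1.81 and 1.16. Bcl2, which protects lymphocytes from apoptosis, was at 182.5, 123.3, 46.22, 45.94, 54.84, and 86.65 against 251.7 to 471.9, and Il7r, the interleukin-7 receptor, at 8.468 ± 9.2 against 34.02 ± 9.93. Both are in a list of precursor and circulating cells, of which 6 of 19 genes were lower (3 with DESeq2) and 2 higher. The 2 were Scin, which encodes an actin-severing protein (log2 fold change 0.79 ± 0.11), and Batf3, which turned to -0.08 against cells of matching UMI total. Thy1, Cd27, and Cd6 were not called (-0.1, -0.1, and -0.07). None of 11 lineage factors was called, with Tbx21 at -0.41 ± 0.13 and Gata3 at -0.4 ± 0.17.

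Of 17 cytokine receptor and survival genes 5 were lower (3 with DESeq2) and Myc was higher. Cish and Socs1, which are induced by cytokine signals and restrain them, fell by 1.16 and 1.14, and Bcl2l11, the proapoptotic BIM, by 1.37. Il2rb, the receptor chain shared by interleukin-2 and interleukin-15, was at -0.34 ± 0.08 and was not called. Myc, at 45.03 ± 20.2 against 26.38 ± 2.62 CPM, was -0.08 on the log2 scale against cells of matching UMI total. Of 18 immediate early genes 8 were lower and none higher. Junb was at 386.2 ± 89.6 against 1100 ± 93.9 CPM, with 5.86 and 6.07 UMIs per cell, and Fos at 162 ± 49.1 against 461.9 ± 81.2. Among 14 interferon-induced genes 5 were lower, among them Irf7 (-1.68 ± 0.15), and 1 was higher, Ifi27l2a, at 333.5 ± 131 against 89.38 ± 19.4. Among 10 genes of heat shock and tissue dissociation, the inducible Hspa1a, Hspa1b, and Dnajb1 were lower, while the constitutive chaperones Hspa8, Hsp90aa1, and Hsp90ab1 and the mitochondrial Hspd1 and Hspe1 were higher.

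Some genes outside all lists were chosen after their values were seen, as the most changed among those at 200 or more CPM in the proliferating cells or 150 or more in the other cells. Lgals1, which encodes the glycan-binding galectin-1, was at 345.6, 279.7, 642.4, 1260, 1224, and 856.7 CPM in the proliferating cells. In the other cells it was at 23.96 to 63.42 (log2 fold change 4.09 ± 0.12 SE, edgeR FDR 2.44e-39). It was detected in 104 of the 157 proliferating cells and 7.79% of the other cells, and in cells thinned to 3300 UMIs in 52.9% (44.7 to 60.9) and 5.89%. Lmnb1, lamin B1, and Smc2, a condensin subunit, were 8.3- and 11.4-fold higher. Tagln2, Emp3, and Crip1, whose products are tied to the cytoskeleton or the membrane, were 5.64-, 3.14-, and 2.37-fold higher. The most lowered were Pim2, a survival kinase (4.96-fold), Ltb, the gene of lymphotoxin β (3.56-fold), and Txnip, a brake on glucose uptake (3.03-fold). Malat1, a nuclear noncoding RNA, was at 2037 to 3413 against 6690 to 7916 CPM, with 40.2 and 40.9 UMIs per cell. The 10 genes with the largest fitted fall, from Pou6f1 to Fbxl21, had no UMI in the proliferating cells and only 331 to 1109 in the other cells. They could pass the limit on counts only through the other cells. Pou6f1 was at least 7-fold lower by a floor of 3 UMIs over the 6 libraries, and the remaining 9 at least 2.09- to 4.11-fold.

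By medians over libraries, the cells just outside the limit lay between the classes for some gene groups. Cells were grouped by UMIs of the choosing genes, so an order among cell cycle genes follows from the grouping and is a description only. Summed S phase genes had a median over libraries of 1176 CPM in cells with no UMI of the 5 genes, 1590 with 1 UMI, 3620 with 2 to 4 UMIs, and 4646 in the proliferating cells. G2 and mitosis genes were at 863.3, 1047, 1999, and 9173. Cytolytic genes were at 88523, 99387, 75397, and 56016. Single libraries did not all keep the order of the S phase medians. In duodenum WT the cells with 2 to 4 UMIs were at 870 CPM of S phase genes, below the 1194 of cells with no UMI. In ileum Btnl2-KO they were at 4486, above the 4141 of the proliferating cells. The cells with 2 to 4 UMIs were 78 in all and held a median of 8033 UMIs, so depth rose in the same order, and its part in these values was not tested.

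Between genotypes, no gene was called in the proliferating cells. Of 5196 genes tested over the 6 sums with segment as a covariate, 0 passed (0%) with edgeR and 0 with DESeq2. Before adjustment, 264 genes had a p below 0.05 in edgeR. Leaving out 1 library gave 1 to 7 called genes. Among the chosen lists, the median log2 fold change of Btnl2-KO against WT was -0.27 over 39 S phase genes, -0.02 over 48 G2 and mitosis genes, and -0.05 over 18 cytolytic genes. Ccl4, a chemokine of activated T cells, was at 154.8, 94.75, and 69.8 CPM in the Btnl2-KO libraries of duodenum, jejunum, and ileum and at 108.3, 298.6, and 476.6 in the WT libraries (log2 fold change -1.42 ± 0.35, edgeR FDR 0.951). Xcl1, another chemokine, was at 1142, 291.2, and 261.7 in Btnl2-KO and 183.4, 137.8, and 295.4 in WT (1.19 ± 0.32, FDR 0.951). One library, duodenum Btnl2-KO, holds the high Xcl1 value. Without the 3 cells of other cell type markers, 3 genes were called: Xcl1 higher, and Ccl4 and the histone gene Hist1h2ae lower.

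Between segments, 5 of the 5196 genes (0.0962%) were called for ileum against duodenum in the proliferating cells. Vim, the intermediate filament vimentin, was at 583.4 and 634.6 CPM in the duodenum, 926.7 and 1096 in the jejunum, and 1403 and 1420 in the ileum (Btnl2-KO and WT), a log2 fold change of 1.19 ± 0.12 (edgeR FDR 1.20e-04). Lgals1 rose by 1.7 ± 0.25 (FDR 0.0121), with 345.6 and 279.7 in the duodenum, 642.4 and 1260 in the jejunum, and 1224 and 856.7 in the ileum. Thinned proliferating cells with Lgals1 made up 33.3 and 25% in the duodenum and 75.9 and 63.6% in the ileum. Nt5c, a nucleotidase, rose by 1.48 ± 0.25 (FDR 0.0229). Fdps, an enzyme of the sterol pathway, fell by 0.95 ± 0.15 (FDR 0.0149), from 530.9 and 553.4 to 284.2 and 289.5. Tuba1b fell by 0.63 ± 0.1 (FDR 0.02), from 1825 and 2108 to 1214 and 1382. It moves with the choosing genes, so its value can follow which cells passed the limit in each library. Without the ileum Btnl2-KO library Vim alone of these 5 was called, without the ileum WT library Vim and Lgals1, and without the duodenum Btnl2-KO library all but Nt5c. Leaving out 1 library gave 2 to 37 called genes in all. The other cells had the same order for 4 of the 5, with Vim at 386 and 390.9 in the duodenum and 608.6 and 609.8 in the ileum and Fdps at 293.1 and 311.3 and 186.3 and 181.8. Lgals1 was at 32.96 and 23.96 in the duodenum and 63.42 and 60.69 in the ileum of the other cells, and Nt5c at 88.5 and 89.28 and 109.7 and 105.3. Tuba1b was instead higher in the ileum of the other cells, at 134.2 and 135.7 against 115.4 and 122.9. The median over 39 S phase genes was -0.25 and over 48 G2 and mitosis genes -0.2. DESeq2 called 1 gene, Vim, and the fit without the 3 cells 28.

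Whether these effects were particular to the proliferating cells was tested as the difference of effects between the classes. For genotype, 8 of 11005 genes (0.0727%) differed, of which Apoa1, Rbp2, Fabp1, and Fabp2 are epithelial genes and moved with the epithelial UMIs of the 2 cells named above. Without the 3 cells 2 genes were called, Ccl4 (-1.19) and Xcl1 (1), and DESeq2 called 0. For ileum against duodenum, 13 genes (0.118%) differed. Top2a, topoisomerase II, fell in the ileum relative to the other cells by 1.1 ± 0.2 (edgeR FDR 1.49e-04), with 564 and 487.2 CPM in the duodenum and 221.9 and 395.8 in the ileum, against 13.28 to 18.14 in the other cells of the 6 libraries. Tubb5 and Tuba1b fell by 0.79 and 0.78. Top2a, Tubb5, and Tuba1b move with the choosing genes, so their values can follow which cells passed the limit in each library. That part was not tested. Gzmk, granzyme K, fell by 1.14. Gzmb fell by 1.09, a value that rests on the ileum Btnl2-KO library, at 1560 CPM against 5026 to 6235 in the remaining 5. The glycolytic gene Aldoa rose by 0.69 ± 0.16 and Nt5c by 1.23 ± 0.26. DESeq2 called 0 and the fit without the 3 cells 9.

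The bulk libraries gave a replicated measure of the same genes in RNA the choice had not used. By the study's legends, part of each sorted sample went to bulk RNA and part was pooled for single cells, so both measures may come from the same mice. In bulk RNA, fewer proliferating cells and less RNA of these genes per cell cannot be told apart. The sort on CD45 and TCRγδ was meant to remove epithelial cells, whose genes are given beside these values. Fits with the epithelial level as a covariate are given as an alternative, and the part of epithelial cells was not tested otherwise. The 5 genes summed to 210.4, 159.3, and 292.2 CPM (here counts per 1000000 counts of the library, scaled by TMM factors) in duodenum Btnl2-KO and 146.6, 193.8, 166.9, and 141.6 in WT, and the groups overlapped. In the jejunum they were at 162.8, 39.29, 90.41, and 225.7 in Btnl2-KO and 109.2, 232.7, 84.79, and 157 in WT. In the ileum they were at 129, 82.96, and 147.6 in Btnl2-KO and at 80.26, 291, 323.6, and 293.9 in WT, so 3 of the 4 WT libraries lay above every Btnl2-KO library and 1 lay below them. The 12 epithelial genes were at 2398, 880.4, and 3084 CPM in ileum Btnl2-KO and at 2927, 7383, 6427, and 5419 in WT, lowest in the same WT library. All 12 epithelial genes were detected in the bulk libraries, with sums from 582.9 to 7383 CPM.

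None of the 5 genes was called in any genotype comparison of all bulk libraries by edgeR or DESeq2. In the ileum their median log2 fold change was -1.12 with all 5 below zero, led by Nusap1 (-1.51 ± 0.51, FDR 0.474), while 0 of 12604 genes (0%) were called, against 221 by DESeq2. Before adjustment, 1108 genes had a p below 0.05 in edgeR. Of 53 G2 and mitosis genes 52 lay below zero (median -0.65), and of 40 S phase genes 27 (median -0.16). The median over all genes tested was 0.06. Genes of a list move together and were measured in the same libraries, so these counts of direction are not independent observations. Without the ileum WT library of replicate 1, 1 of the 5 genes and 1 of the 53 were called, with medians of -1.42 and -0.9. In that fit 60 of 12493 genes were called, the most of any fit without 1 library (0 to 60). The library left out was the WT library with the lowest sum of the 5 genes. The 12 epithelial genes had a median of -1.19 and the 6 crypt genes -1.05. With the epithelial level as a covariate the medians were -0.01 for the 5 genes and -0.06 for the G2 and mitosis list. The epithelial sums themselves differed by genotype in the ileum, with means of 2121 CPM in Btnl2-KO and 5539 in WT. In this fit the effects of genotype and of the epithelial level therefore cannot be told apart. In the duodenum the 5 genes had a median of 0.47 (1 of 12680 genes called, 0.00789%), and in the jejunum -0.12 (1 of 12594, 0.00794%). The duodenal median was 0.22 without Btnl2-KO replicate 3 and 0.33 to 0.66 without each other library. The jejunal median turned to 0.01, 0.19, and 0.23 without Btnl2-KO replicate 3, Btnl2-KO replicate 2, and WT replicate 2, and was -0.1 to -0.59 without each other library. With the epithelial covariate the medians were 0.38 in the duodenum and 0.31 in the jejunum. The gene called in both segments was Btnl2 itself, with log2 fold changes of -9.73 and -8.43 (FDR 0.0124 and 0.026). Within WT, the 5 genes were higher in the ileum than in the duodenum by a median of 0.64 and the G2 and mitosis genes by 0.5, none called beside 271 of 12535 genes (2.16%). With the epithelial covariate the medians were 0.96 and 0.82, with 2 of the 5 and 13 of the 53 called, and that of the epithelial genes was 0.79. Among all 12535 genes, that fit called 492 higher and 192 lower. Without the ileum WT library of replicate 1, 3 of the 5 genes and 20 of the 53 passed, with medians of 0.9 and 0.7, and epithelial genes had a median of 0.49. In that fit 618 of 12708 genes were called, the most of any fit without 1 library (156 to 618). That library had the lowest sum of the 5 genes in its group, so leaving it out raises their ileum level by itself.

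**Figure D5:**
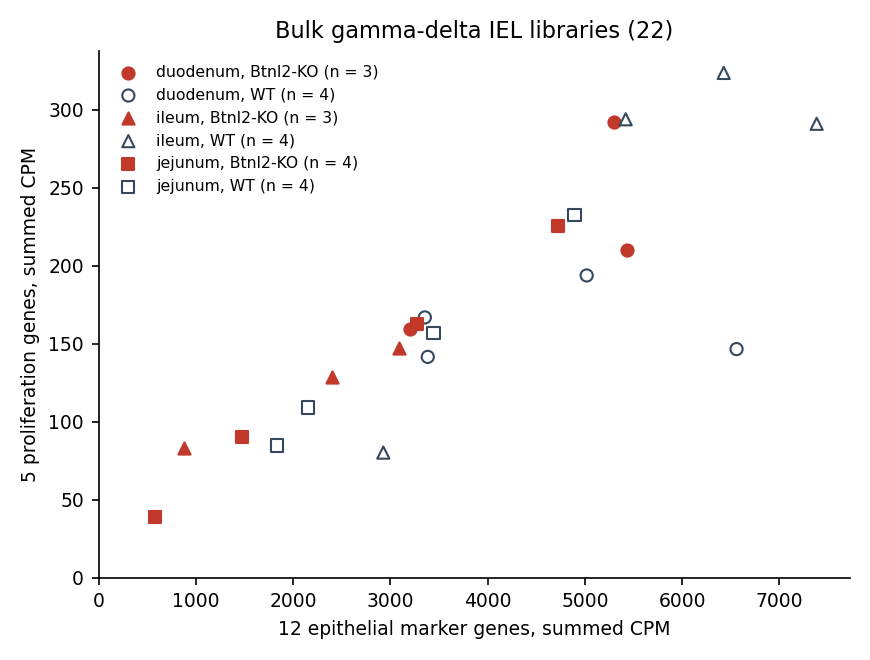
Summed CPM of the 5 proliferation genes (vertical axis) against 12 epithelial marker genes (horizontal axis) in each of the 22 bulk γδ IEL libraries, by segment (symbol) and genotype (colour). Libraries low in epithelial genes, such as the jejunum Btnl2-KO library at 582.9 CPM, are also low in the 5 genes (39.29 CPM), and the ileum WT library at 80.26 CPM lies apart from the other 3 of its group.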

How the data were processed

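Bulk and single-cell RNA were measured in γδ IELs of Btnl2-KO and WT mice, grouped by the labels. The single-cell tables hold raw UMI counts that the authors made with Cell Ranger (named in the study's methods) against GRCm38 (per the labels). For the bulk libraries the authors deposited RSEM expected counts, rounded here to whole numbers (13444958 to 30029485 per library); 1 column that matched no sample was not used. How the bulk libraries were prepared is given differently by the labels and the study. Rows of one symbol were added. CPM of single genes are scaled by TMM factors; sums over lists in single cells are not. UMI counts were summed per library and class and tested with edgeR 4.0.16 (quasi-likelihood, TMM, at least 10 counts in at least 6 of 12 or 3 of 6 sums, Benjamini-Hochberg, FDR below 0.05, fold above 1.5), with DESeq2 1.42.0 as an alternative, both checked on simulated data. The 5 choosing genes and 3 Cd3 genes stayed in library sizes and were not tested. Thinning, doublet calls, and intervals used scanpy 1.11.5 and scipy 1.17.1 in Python 3.11.15. Genes named are the choosing genes, list members, the called genes of largest fold that moved the same way in each library, and Btnl2. The members and lists were chosen with earlier results of these data known. Replicates of the bulk groups are separate pools of mice. Libraries of whole intestine and of sorted epithelial cells, and the study's epithelial tables, were not used here. A few genes of the lists are not reported here.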

Additional observations from a re-analysis of the deposited data

Results flagged for a closer look

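Of 20 groups of 4 bulk libraries and gene lists looked at, 2 held a library far from the rest; chance gives such a gap in about 1 group in 20. The 5 proliferation genes summed to 80.26 CPM in the ileum WT library of replicate 1, against 291 to 323.6 in the other 3, and its epithelial genes were also lowest of that group. The S phase genes summed to 2236 CPM in the jejunum Btnl2-KO library of replicate 2, the lowest of that group.

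The ratio of Btnl2-KO to WT proliferating shares was 0.699 in the ileum and 1.36 in the duodenum, opposite in direction; with 1 library per group the difference was not tested.

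By the test of the difference between the classes, the genotype effect on Hist1h2ae was -0.98 (log2) in proliferating relative to other cells. This histone gene has near-identical copies, and it was not called without the 3 cells of other cell type markers. For ileum against duodenum, the effect in proliferating relative to other cells was lower for Apoa1 (-13.85), Fabp2 (-5.36), Klra3 (-3.45), Gzmk (-1.14), Top2a (-1.10), Gzmb (-1.09), Tubb5 (-0.79), and Tuba1b (-0.78), and higher for Gm156 (1.80), Ckb (1.72), Nt5c (1.23), and Aldoa (0.69). Apoa1 and Fabp2 are epithelial genes whose values come from the duodenum WT library (791 and 267.7 CPM), which holds a cell with 211 epithelial UMIs. Klra3 had 0 to 27.65 CPM in the proliferating cells and belongs to a family of near-identical genes. None of these 13 results was called by DESeq2. Top2a, Tubb5, and Tuba1b move with the choosing genes, so their values can follow which cells passed the limit.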

How the results depend on the processing

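The 312 gene results named for proliferating against other cells kept their direction in each alternative that tested them, except Batf3 and Myc (-0.08 each) against other cells of matching UMI total, where the counts of calls also fell to 620 higher and 578 lower. Leaving out 1 library gave 1266 to 1313 genes higher and 1453 to 1532 lower. For genotype in the proliferating cells, 35 genes were called with no filter on low counts, 3 without the cells of other cell types (chosen after seeing the data), and 1 to 7 without 1 library. For ileum against duodenum the numbers were 1 with DESeq2, 49 with no filter, 28 without those cells, and 2 to 37 without 1 library. The difference of the genotype effect gave 0 genes with DESeq2 and 2 without those cells; that of the segment effect gave 0 with DESeq2, and Fabp2 turned to 0.64 without those cells. In the bulk libraries DESeq2 called 4 genes in the duodenum, 2 in the jejunum, 221 in the ileum, and 502 for WT ileum against duodenum, where the epithelial covariate gave 684. Leaving out 1 bulk library gave 0 to 3, 0 to 0, 0 to 60, and 156 to 618; the ileum value of 60 was without the WT library of replicate 1. The cause was not tested. The ratios of shares stayed within their counting intervals under all alternatives, while the interval of the WT ileum to duodenum ratio lay above 1 under 3. No paired analysis was possible because the bulk labels carry only library numbers, and the single-cell groups hold 1 library each. The number of proliferating cells limits genotype and segment tests to abundant genes.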

Other observations

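Another 25 cells had at least 5 UMIs of the 5 proliferation genes but under 5 UMIs of the Cd3 genes, among 180 cells with at least 500 genes that failed the Cd3 limit. Of the 25, 23 held over 20 UMIs of the 12 epithelial genes. They entered no comparison. With a different set of genes to choose the cells (Mki67, Top2a, Cdk1, Ube2c, and Tpx2), 145 cells passed, 0.613% of the γδ IELs (exact 95% interval 0.518 to 0.721).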
